A study of Mus musculus with 4 samples.

Results

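The RGS genes encode regulators of G protein signalling. Of the 19074 genes counted in this single-cell study of mouse islets, 6 are described here: Rgs2, Rgs4, Rgs7, Rgs9, Rgs16 and Rgs17. They were taken by name, with their counts per cell class and genotype already known, and 13 other RGS genes were counted beside them. Because the choice drew on those counts in beta, alpha and delta cells, differences between genotypes in these 3 classes are given below as values without a test.

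Single cells from islets of the C57BL/6 strain were sequenced by the 10x Genomics 3′ assay, which tags each captured RNA molecule with a unique molecular identifier (UMI). The series text names the mice Sel1Lf/f, which carry a floxed Sel1L gene without Cre, and Sel1LIns1, a name for floxed mice in which Cre made from the insulin gene Ins1 deletes Sel1L in beta cells; the labels call the 2 libraries of each genotype wild type and Sel1L knockout. SEL1L holds together the HRD1 complex that removes misfolded proteins from the endoplasmic reticulum, and the series title names the identity and function of beta cells as its subject. No library with Cre and intact Sel1L was analysed, so Cre and deletion cannot be told apart. The age was 7 weeks according to the samples' labels and 5 weeks according to the series text. Islets of both genotypes rested overnight in medium with 11 mM glucose per the labels and were then dissociated with trypsin. Nothing in the labels ties a replicate to 1 animal or to a pool, so p-values measure the spread between these libraries, which may be technical.

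RGS proteins bind active G protein alpha subunits and speed up their hydrolysis of GTP, which shortens signals from G protein coupled receptors. Rgs2, Rgs4 and Rgs16 belong to the small R4 subfamily; Rgs2 acts mainly on Gq, while Rgs4 and Rgs16 act on Gi/o and Gq. Rgs7 and Rgs9 belong to the R7 subfamily, which acts on Gi/o and is stable only when bound to the G protein subunit encoded by Gnb5, and Rgs17 belongs to the RZ subfamily, which acts on Gi/o proteins including Gz. In islets, Gi/o coupled receptors for somatostatin and adrenaline restrain hormone release, whereas Gq coupled receptors for acetylcholine and fatty acids promote it. Rgs4 is known as a brake on muscarinic signals in beta cells, Rgs2 as a gene induced by cyclic AMP, and Rgs16 as a gene of embryonic endocrine cells that can be switched on again in adult islets.

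The 4 members Rgs2, Rgs4, Rgs7 and Rgs16 lie on chromosome 1 of GRCm38, at chr1:143999338-144004161, chr1:169741477-169747642, chr1:175059087-175492500 and chr1:153740349-153745468. Rgs9 lies at chr11:109225355-109298129 and Rgs17 at chr10:5825663-5922400. All are on the minus strand except Rgs16, and no gene that overlaps a member was counted in the tables. Rgs16 has Rgs8 as its neighbour at 40.03 kb, and Rgs4 has Rgs5 at 45.66 kb. The 250 bases before the start site are shown for Rgs4 and Rgs16, which had the largest log2 changes between genotypes among the members in alpha and delta cells and in beta cells, and for Rgs2, known as a cyclic AMP target (RefSeq, GRCm38.p6, 5′ to 3′ on the gene's strand: chr1:169747643-169747892, chr1:153740103-153740352 and chr1:144004150-144004399). Capitals mark the letters TGACG, a partial cyclic AMP response element read on either strand, and TATAAA.
Rgs4: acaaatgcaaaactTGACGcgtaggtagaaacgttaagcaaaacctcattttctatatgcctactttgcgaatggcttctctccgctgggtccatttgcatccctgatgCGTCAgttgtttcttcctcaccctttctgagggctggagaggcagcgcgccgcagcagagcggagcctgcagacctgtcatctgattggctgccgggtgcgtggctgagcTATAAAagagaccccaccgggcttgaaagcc
Rgs16: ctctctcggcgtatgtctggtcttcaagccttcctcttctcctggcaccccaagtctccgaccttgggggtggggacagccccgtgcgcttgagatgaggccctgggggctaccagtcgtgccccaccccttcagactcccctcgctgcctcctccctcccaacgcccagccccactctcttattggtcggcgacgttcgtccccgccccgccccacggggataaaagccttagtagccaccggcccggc
Rgs2: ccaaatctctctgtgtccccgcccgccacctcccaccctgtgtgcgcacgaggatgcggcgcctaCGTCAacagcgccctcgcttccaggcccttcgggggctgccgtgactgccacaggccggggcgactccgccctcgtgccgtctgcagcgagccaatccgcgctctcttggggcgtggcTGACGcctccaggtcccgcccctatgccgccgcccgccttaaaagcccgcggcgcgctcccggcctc

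The Rgs4 window held TGACG starting at positions -236 and -141 and TATAAA at -31, and the Rgs2 window held TGACG at -185 and -67, where -1 is the base just before the start site and the leftmost letter as printed is given. TGACG occurred in 20.8% of 32851 RefSeq windows of 300 bases, and TATAAA in 13.6%. Rgs9 held TATAAA at -195, and Rgs7 held the E-box CACGTG, present in 7.15% of windows, at -29. The full element TGACGTCA and the stress elements TGATGCAA, TGACGTGG and ERSE, searched on both strands, occurred in 1.79%, 0.895%, 0.676% and 0.119% of windows and in none of the 6 member windows. Rgs16 and Rgs17 held none of these letters. A match describes the sequence only.

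Cells were assigned to classes by the share of their UMIs from hormone genes. Beta cells had at least 10% insulin UMIs, while alpha and delta cells had at least 3% Gcg or Sst and less than 5% insulin. The 4 libraries gave 3766, 3707, 2491 and 1399 beta cells, in the order wild type 1, wild type 2, knockout 1 and knockout 2, which is kept throughout. Other cells with at least 3% Ppy were called PP cells, and endothelial, stromal, macrophage and Schwann cells were assigned from marker genes. Libraries held 2483 to 5951 cells and 99156230 to 228515309 UMIs, and no 2 libraries shared more than 9 cell barcodes. Levels are given as CPM, a gene's UMIs in a class and library divided by all UMIs there except those of 7 hormone genes, times 1000000. Summed markers other than hormones were highest in their own class for the beta, alpha, delta, endothelial, stromal, macrophage and Schwann lists. The PP class rests on Ppy: its 2 other markers, Cd9 and Spp1, summed to 992 to 2040 CPM in PP cells but also to 1367 to 5423 in stromal and 2544 to 3259 in endothelial cells. Stromal markers in Schwann cells, at 2164 to 2931, exceeded the Schwann markers at 1314 to 1775.

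Of beta cell UMIs, insulin took 67.4% and 68.0% in wild type but 40.6% and 44.4% in knockout. The non-hormone beta markers Nkx6-1, Slc2a2, Pdx1 and Mafa together had 1773, 1749, 482 and 476 CPM there. The CPM scale leaves hormones out for this reason, and differences are given as log2 changes, knockout over wild type, after TMM scaling, which sets the typical gene to no change. More non-hormone UMIs were also counted per knockout cell: the median beta cell had 12249, 12682, 21917 and 24082. With hormones included, the median beta cell had 46909.5, 49861, 44119 and 51345 UMIs, so the groups overlapped. The median macrophage had 10305, 10424, 16878 and 19036 non-hormone UMIs, so the rise was not confined to beta cells. Whether it reflects RNA content or sequencing depth was not tested. Counted per cell, the median gene of beta cells was 0.91 higher in knockout on the log2 scale, and the median genes of alpha, delta and PP cells were 0.79, 0.69 and 0.83 higher. With library size alone the shifts were 0.90, 0.23, 0.16 and 0.42. Sel1l itself had 126, 124, 87.0 and 91.8 CPM in beta cells (log2 change -0.50, edgeR adjusted p = 0.00144), but 1634, 1688, 2038 and 2377 UMIs per 1000 beta cells, so its direction depended on the scaling. Reads from the 3′ end may lie outside the deleted exons, so these values do not check the labels.

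**Figure D1:**
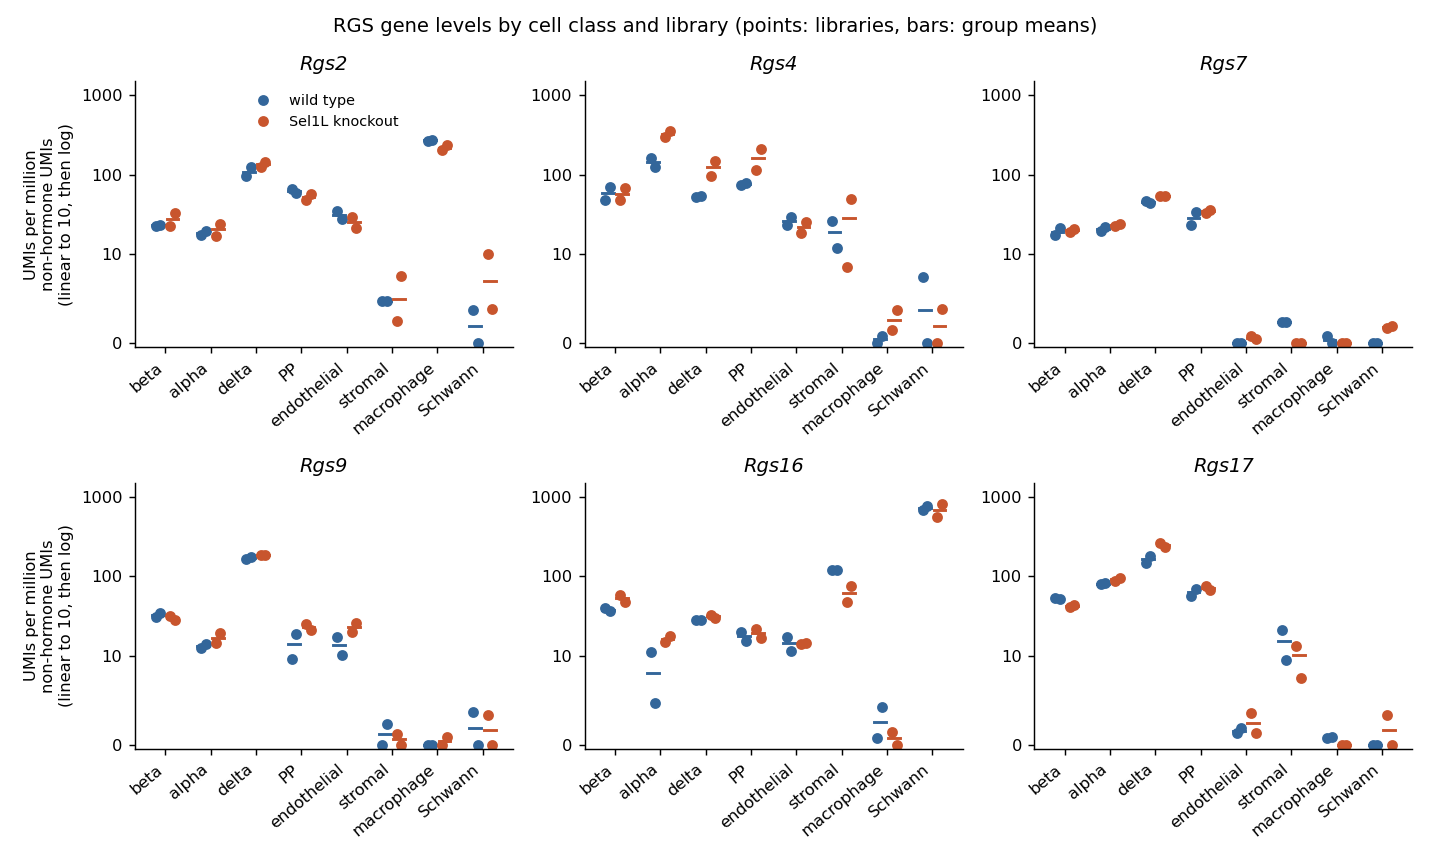
Level of each RGS gene in 8 cell classes, in non-hormone CPM (vertical axis linear to 10, then logarithmic). Points are libraries (blue wild type, orange Sel1L knockout, 2 each) and bars are group means; Rgs4 sits higher in the knockout libraries of alpha, delta and PP cells, while Rgs9 is highest in delta cells, Rgs16 in Schwann cells and Rgs2 in macrophages of both genotypes.

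Rgs4 had the largest log2 change of the 6 genes in alpha, delta and PP cells. In alpha cells it was counted at 161, 127, 294 and 356 CPM. In delta cells the values were 52.2, 54.7, 97.5 and 150, and in PP cells 74.5, 79.3, 113 and 211. In each of these 3 classes both knockout libraries lay above both wild type libraries. The log2 change was 1.05 in alpha cells, 1.11 in delta cells and 0.94 in PP cells, or 2.08-fold, 2.15-fold and 1.92-fold. With library size alone it was 1.28, 1.26 and 1.36, where the median gene was 0.23, 0.16 and 0.42 higher. Per cell it was 1.84, 1.80 and 1.81, where the median gene was 0.79, 0.69 and 0.83 higher. Since the median gene rose on both scales, the kept direction adds no support.

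In beta cells, the class in which Cre is driven, Rgs4 did not follow this pattern. Its level was 47.9, 69.8, 48.1 and 68.2 CPM, so that each knockout library matched one wild type library and the groups overlapped. The log2 change of -0.04 turned to 0.86 with library size alone and 0.87 per cell, close to the shift of the median gene. Leaving out libraries moved it between -0.31 and 0.28. Summed alpha markers, of the class with most Rgs4, were lower in knockout beta cells (913, 1011, 403 and 337 CPM); their part in the result was not tested.

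The choice of genes named beta, alpha and delta cells but not PP cells. All 6 members were therefore tested in PP cells with edgeR's quasi-likelihood test. Earlier results of these data were known, and PP cells come from the same libraries. The test is therefore not independent of the alpha and delta values. Of 10496 genes tested, 4.98% were called at an adjusted p under 0.05, 2.69% higher and 2.3% lower. All 6 passed the filter on low counts, and 1 was called: Rgs4 rose, with a log2 change of 0.94 ± 0.24 (SE, n = 2 libraries per genotype) and an edgeR adjusted p of 0.0418. The call was lost with DESeq2 (0.98, adjusted p = 0.196) and without knockout library 2 (0.44, edgeR adjusted p = 0.144). A single PP cell of knockout library 2 held 70 of its 391 Rgs4 UMIs, or 17.9%. With the cell of highest Rgs4 count left out of every library, an alternative chosen after seeing the data, the log2 change was 0.84 with an edgeR adjusted p of 0.0394. Alpha cells had the highest Rgs4 level, and summed alpha markers in PP cells were lower in knockout (1380 and 1309 CPM) than in wild type (2328 and 1976), while summed endothelial markers were higher (90.6 and 133 against 7.29 and 3.47); their part in the result was not tested.

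The share of cells with an Rgs4 transcript moved in the same way once each cell was thinned to 5000 non-hormone UMIs, which removes the difference in depth. It was 39.8%, 32.9%, 56.0% and 59.1% of alpha cells and 18.4%, 17.6%, 29.7% and 35.0% of delta cells. In PP cells it was 24.9%, 22.3%, 26.2% and 38.3%, where knockout library 1 stood close to wild type library 1. Macrophages, assumed to lack Rgs4, gave 0%, 0.18%, 0.57% and 1.22% after thinning. These shares were also higher in knockout, but rested on 0, 1, 2 and 4 UMIs. Median depths of macrophages were 10305, 10424, 16878 and 19036 non-hormone UMIs, against 10227, 10560, 15878 and 16881 in alpha cells. Of the alpha cells 1094, 933, 765 and 328 were deep enough to be thinned, of 1126, 949, 772 and 334. Without thinning the shares of alpha cells were 56.0%, 47.1%, 79.0% and 80.8%. The cell with most Rgs4 UMIs held 1.28% to 6.63% of those of its library in alpha cells and 3.52% to 6.15% in delta cells.

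**Figure D2:**
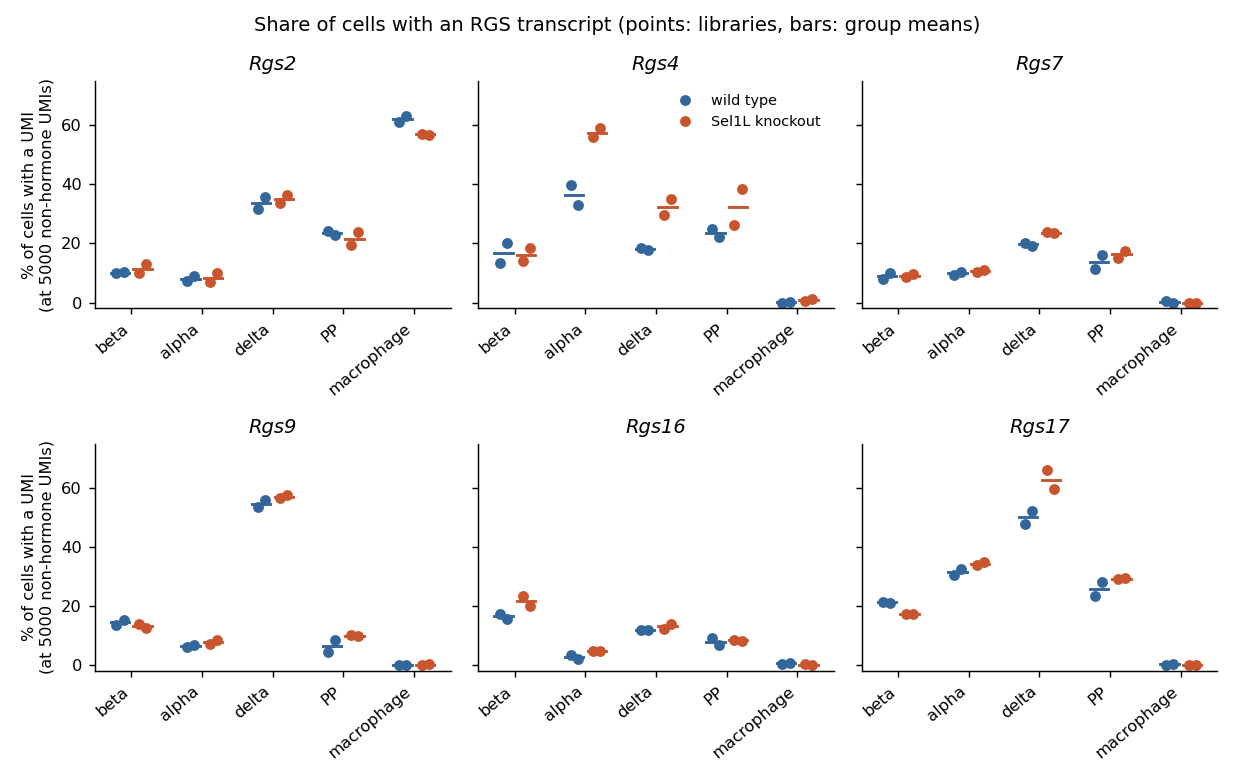
Share of cells with at least 1 UMI of each RGS gene (percent, vertical axis) in 5 cell classes, expected after thinning each cell to 5000 non-hormone UMIs; points are libraries and bars are group means. Rgs4 was found in 32.9% to 39.8% of wild type and 56.0% to 59.1% of knockout alpha cells, whereas macrophages gave up to 1.22%.

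The other classes held little Rgs4. Endothelial cells had 23.3, 29.3, 18.5 and 25.3 CPM, with overlapping groups (log2 change -0.33, edgeR adjusted p = 0.471). In stromal cells knockout library 2 alone was high, at 49.6 against 26.3, 11.9 and 8.55 in the other libraries (0.49, edgeR adjusted p = 0.915), and without it the change was -1.19. In macrophages and Schwann cells 4 UMIs or fewer were counted per library. The order of the classes in wild type was alpha, PP, beta and delta, endothelial, stromal, then Schwann and macrophage; beta overlapped delta, endothelial overlapped stromal and Schwann overlapped macrophage. In knockout libraries delta moved above beta and overlapped PP.

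Rgs16, of the same subfamily as Rgs4, was the member with the largest log2 change in beta cells. Its level there was 39.9, 36.4, 58.5 and 48.2 CPM, both knockout libraries were higher, and the groups did not overlap. The log2 change was 0.47, or 1.39-fold, and rose to 1.37 with library size alone and per cell, against a median gene at 0.90 and 0.91. Summed Schwann markers, of the class with most Rgs16, were also higher in knockout beta cells (12.2, 10.0, 19.1 and 20.3 CPM, with 1, 2, 0 and 0 of 8 markers at 0); their part in the result was not tested. Per 1000 beta cells 519, 496, 1370 and 1249 Rgs16 UMIs were counted. After thinning, 17.3%, 15.8%, 23.5% and 20.1% of beta cells had an Rgs16 UMI, against at most 0.826% of macrophages; without thinning the beta cell shares were 33.6%, 31.7%, 58.8% and 57.8%.

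Across the 6 members, beta cells had 1 gene higher in both knockout libraries (Rgs16), 1 lower (Rgs17) and 4 that overlapped after TMM scaling. In beta cells 73.3% of the 15216 genes tested had groups that did not overlap, 37.2% higher and 36.1% lower in knockout, and 39.5% were called; since beta cells were used in choosing the genes, nothing is read from the count of members. The same counts were 3 higher, 0 lower and 3 overlapping in alpha cells (59.6% of all genes without overlap, 30.4% higher and 29.2% lower) and 4, 0 and 2 in delta cells (55.5%, 28.3% and 27.1%). In PP cells Rgs4 and Rgs9 were higher, Rgs2 was lower and 3 overlapped, where 53.2% of all genes did not overlap, 27.5% higher and 25.8% lower.

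Rgs16 was higher in knockout beta cells with less insulin, and in wild type cells of 30 to 50% insulin than of 50 to 70%. Knockout cells with 10 to 30% insulin UMIs had 63.8 and 61.7 CPM of Rgs16, those with 30 to 50% had 60.0 and 49.9, and those with 50 to 70% had 45.5 and 36.6. In wild type libraries cells with 30 to 50% insulin had 46.5 and 58.6, from 93 and 67 UMIs, those with 50 to 70% had 38.8 and 35.6, and those with 70 to 100% had 41.6 and 36.8. The genotypes therefore overlapped at matched insulin of 30 to 50% and of 50 to 70%. At 10 to 30% wild type cells had 31.5 and 16.1, from 12 and 6 UMIs. Cells just outside the gate, with 5 to 10% insulin, had 103 and 79.0 CPM of Rgs16 over 82 and 24 knockout cells, while wild type libraries had 19 and 8 such cells with 7 and 1 UMIs.

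**Figure D3:**
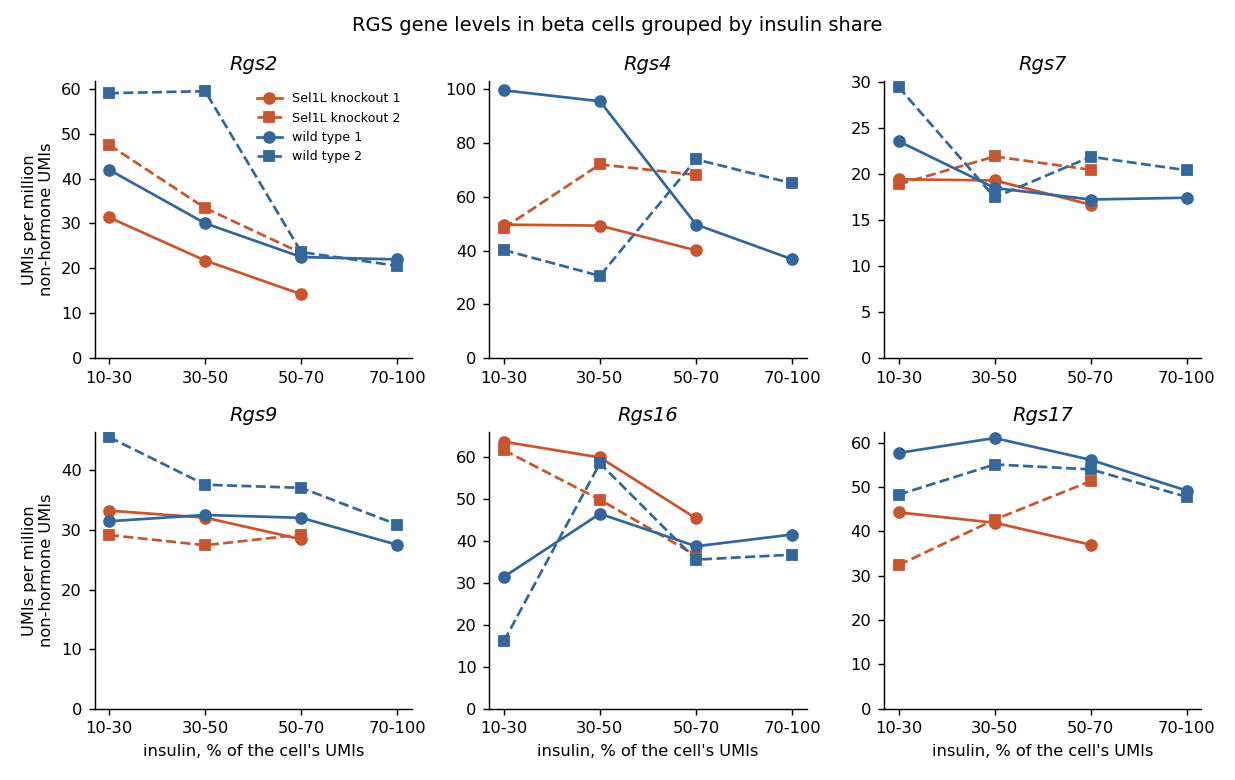
RGS gene levels in beta cells (non-hormone CPM, vertical axis from 0) grouped by the insulin share of the cell's UMIs (percent, horizontal axis); each line is 1 library, and the band of 70 to 100% is not drawn for knockout libraries, which have 4 and 7 cells there. Rgs16 falls from 63.8 and 61.7 to 45.5 and 36.6 with rising insulin in the knockout libraries, wild type values at 30 to 50% insulin (46.5 and 58.6) overlap knockout, and wild type cells below 50% are few.

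Rgs16 in alpha cells rested on few cells. The level was 11.4, 4.75, 15.1 and 17.9 CPM, with knockout above wild type and a log2 change of 0.87. Summed Schwann markers in alpha cells were 19.1, 19.6, 27.3 and 34.8 CPM, also higher in knockout; their part in the result was not tested. One alpha cell held 26.4% of the Rgs16 UMIs of wild type library 1, and one held 39.3% of those of knockout library 2. Without the top 1% of cells the levels were 6.26, 3.50, 9.37 and 8.35, and without wild type library 1 or 2 the log2 change was 1.66 or 0.39. In delta cells the values were 28.3, 28.5, 33.1 and 30.3, a log2 change of 0.07.

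The highest Rgs16 levels were found outside the endocrine cells. Schwann cells, the glia of islet nerves, had 683, 760, 563 and 816 CPM, with overlapping groups (log2 change -0.12 ± 0.22, SE, edgeR adjusted p = 0.945). Stromal cells had 119, 122, 47.6 and 75.1, lower in both knockout libraries and counted from 39 to 51 UMIs per library. The stromal groups did not overlap (log2 change -1.04 ± 0.28, SE), but the gene was not called (edgeR adjusted p = 0.499), except without knockout library 2 (-1.38, edgeR adjusted p = 0.0119). Summed Schwann markers in stromal cells were 119, 191, 74.5 and 107 CPM, so they were also lower in knockout; their part in the result was not tested. PP and endothelial cells had 15.4 to 22.0 and 11.6 to 17.5, with overlapping groups.

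Rgs2, the third R4 member, was highest in macrophages, at 266, 277, 203 and 234 CPM, and next in delta cells, at 95.4, 124, 127 and 144. PP, endothelial, beta and alpha cells followed in wild type, each apart from the next, and stromal and Schwann cells had 6 UMIs or fewer per library. In macrophages both knockout libraries were lower (log2 change -0.40 ± 0.13, SE), but Rgs2 was not called (edgeR adjusted p = 0.295). Per cell the change turned to 0.51, below the median gene of macrophages at 0.89. In PP cells the values were 67.2, 58.4, 48.8 and 56.6, with both knockout libraries lower (-0.34 ± 0.16, SE, edgeR adjusted p = 0.216). Per cell this change turned to 0.49, below the median gene of PP cells at 0.83. Summed macrophage markers in PP cells were also lower in knockout (76.1, 112, 56.4 and 39.4 CPM); their part in the result was not tested. The sole macrophage member that passed the filter was Rgs2, and 0.363% of genes tested in macrophages were called.

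In beta cells Rgs2 stood at 22.8, 23.7, 22.8 and 32.9 CPM. Knockout library 1 matched the wild type libraries and knockout library 2 alone was higher, so the groups overlapped. The log2 change of 0.24 became -0.04 without knockout library 2. Like Rgs16, Rgs2 was higher in knockout beta cells with less insulin: 31.3 and 47.5 at 10 to 30% insulin, 21.7 and 33.4 at 30 to 50%, and 14.2 and 23.4 at 50 to 70%. Wild type beta cells at 10 to 30% insulin had 42.0 and 59.0, from 16 and 22 UMIs, and those at 50 to 70% had 22.5 and 23.6. In alpha cells the values were 17.7, 19.7, 17.1 and 24.3, with overlapping groups and a log2 change of -0.01, which was 0.77 per cell.

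Rgs7, an R7 member, differed little between genotypes after TMM scaling. Its levels were 17.4, 21.4, 19.0 and 21.1 CPM in beta cells, 19.5, 22.3, 22.9 and 24.4 in alpha cells, and 47.4, 43.8, 54.7 and 54.6 in delta cells. The log2 changes were 0.03, 0.06 and 0.17, and after TMM scaling only the delta groups were apart. PP cells had 23.5, 34.2, 33.2 and 36.7 (0.13 ± 0.21, SE, edgeR adjusted p = 0.769). Delta cells had the highest level in both genotypes, followed by PP, alpha and beta cells, and the alpha and beta values of wild type overlapped. Outside endocrine cells at most 2 UMIs per library were counted in a class.

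Rgs9, the other R7 member, was highest in delta cells in both genotypes. Its level there was 164, 176, 185 and 185 CPM, against 30.6, 35.1, 31.8 and 28.3 in beta cells and 12.6, 14.3, 14.6 and 19.4 in alpha cells. The log2 changes were 0.03 in delta cells, 0.19 in alpha cells and -0.14 in beta cells, where the sign turned with library size alone (0.76) and per cell (0.75). After thinning 53.4%, 55.9%, 56.5% and 57.7% of delta cells had an Rgs9 UMI, against at most 0.374% of macrophages. PP cells had 9.72, 18.8, 25.5 and 21.6 (0.56 ± 0.28, SE, edgeR adjusted p = 0.257), which became 0.24 without wild type library 1 and 1.21 without wild type library 2.

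Endothelial cells had 17.5, 10.4, 20.1 and 25.8 CPM of Rgs9, with knockout above wild type (0.66 ± 0.30, SE, edgeR adjusted p = 0.238), which became 1.09 without wild type library 1 and 0.32 without wild type library 2. None of the 4 members tested in endothelial cells was called by edgeR, where 1.26% of all genes were, and 1 had an unadjusted p under 0.05. DESeq2 gave no adjusted p for these 4. Counted per cell, Rgs9 in endothelial cells was 1.27 higher and was called (edgeR adjusted p = 0.000774). On that scale 56.6% of all genes in endothelial cells were called, and the median gene was 0.61 higher. Of the 4, Rgs9 alone had groups that did not overlap, against 52% of all genes. In stromal cells, where edgeR called 0.0668% of genes, edgeR and DESeq2 called 0 of 2 members, with 1 member at an unadjusted p under 0.05 and 1 without overlap, against 38.6% of all genes. In macrophages 0 of 1 was called by either tool, with 1 at an unadjusted p under 0.05; its groups did not overlap, as in 40.5% of all genes. In Schwann cells 0 of 1 was called by either tool, 0 had an unadjusted p under 0.05, edgeR called 0.0413% of genes and 37.3% did not overlap.

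Rgs17, the RZ member, was lower in knockout beta cells and higher in knockout delta cells after TMM scaling, and differed little in alpha cells. In beta cells it stood at 54.2, 51.9, 41.6 and 43.4 CPM. In delta cells it stood at 148, 181, 262 and 234, higher in both knockout libraries, and in alpha cells at 79.5, 82.2, 88.1 and 96.7. The log2 changes were -0.34, 0.50 and 0.07, and the groups overlapped in none of the 3 classes; the difference between classes was not tested. The lower value in beta cells held relative to the median gene only: with library size alone the change was 0.56 and per cell 0.57, from 704, 708, 976 and 1122 Rgs17 UMIs per 1000 beta cells.

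The share of cells with an Rgs17 UMI depended on the scaling in the same way. After thinning to 5000 non-hormone UMIs it was 21.5%, 21.0%, 17.3% and 17.4% of beta cells, and after thinning to 5000 UMIs of any gene, insulin included, it was 7.03%, 6.39%, 9.79% and 9.39%. In delta cells it was 48.0%, 52.4%, 66.2% and 59.5% by the former. Without thinning it was 42.1%, 42.8%, 51.0% and 51.5% of beta cells and 62.1%, 68.8%, 85.7% and 82.7% of delta cells. Macrophages gave at most 0.581% after thinning. The order of Rgs17 levels was delta, alpha, PP and beta in both genotypes, each apart from the next, and PP cells had overlapping groups (57.5, 69.8, 76.5 and 67.9; log2 change 0.08 ± 0.15, SE, edgeR adjusted p = 0.787).

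**Figure D4:**
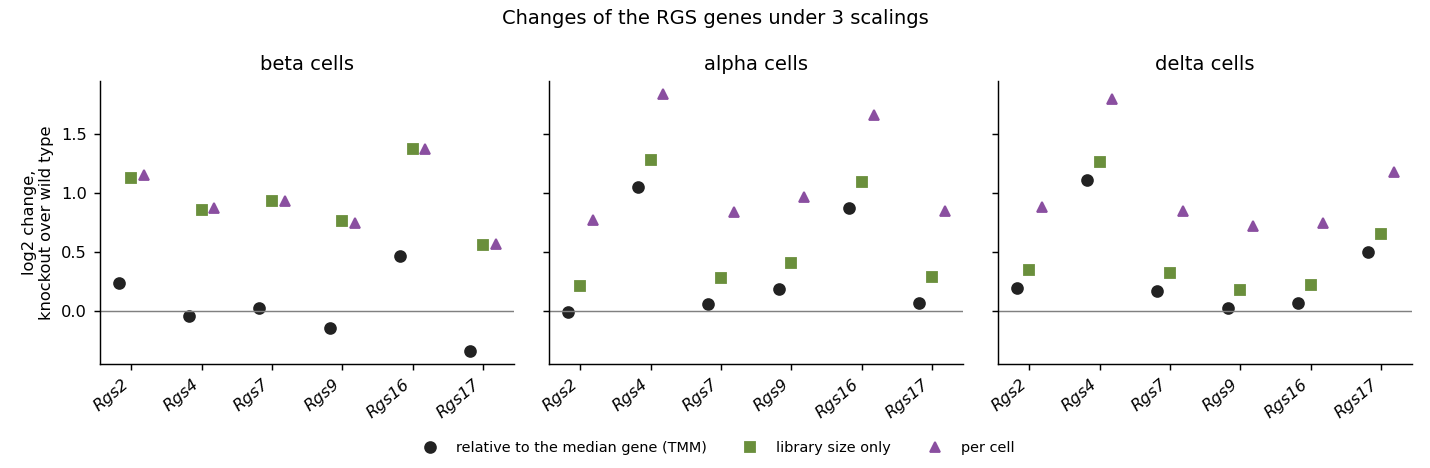
Log2 change, knockout over wild type (vertical axis), of the 6 RGS genes in beta, alpha and delta cells under TMM scaling (circles), library size alone (squares) and per cell (triangles); the line marks no change. In beta cells Rgs4, Rgs9 and Rgs17 lie below the line with TMM and above it with the other scalings, as does Rgs2 in alpha cells, while Rgs16 in beta cells and Rgs4 in alpha and delta cells lie above it with all 3.

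The genes whose levels were most like those of a member, by Pearson's r of log2(level + 1) over the 32 sums of 8 classes and 4 libraries and among 11089 genes with a mean of at least 5 CPM, were Abcc3, Id2 and Rps6ka1 for Rgs2 (0.928, 0.923 and 0.920). For Rgs4 they included Plekhh2 and Rev3l (0.937 and 0.917), and for Rgs7 they were Klc3, Tmem130 and St8sia3 (0.976, 0.970 and 0.969). Rgs9 was most like Zcchc11, Ssbp3 and Car8 (0.932, 0.929 and 0.928), Rgs16 most like Cadm4, Gstp1 and Phgdh (0.947, 0.920 and 0.910), and Rgs17 most like Runx1t1, Isl1 and Ptprn (0.964, 0.961 and 0.952). The sums of 1 library share its depth, and these values describe the order of classes more than the genotypes.

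Of the other 13 RGS genes, 8 were tested in beta cells and 4 were called by edgeR, 1 higher and 3 lower. Of all genes tested in beta cells 39.5% were called, 19.5% higher and 20.1% lower. Rgs8, the neighbour of Rgs16 and also an R4 gene, rose from 4 and 3 to 17 and 17 UMIs in all beta cells of a library (log2 change 2.34 ± 0.56, SE, edgeR adjusted p = 0.0172; DESeq2 adjusted p = 0.0732). Rgs10 fell from 4.96 and 4.73 to 1.99 and 2.60 CPM (-1.11, and -0.21 with library size alone). Rgs10 was highest in macrophages, whose summed markers in beta cells were also lower in knockout (146, 151, 91.6 and 107 CPM); their part in the result was not tested. Rgs5, the neighbour of Rgs4, fell from 1.84 and 2.29 to 0.925 and 1.22 (-0.98, and -0.08). Rgs3 was lower at 15.4, 14.9, 11.0 and 8.51 (-0.64), which turned to 0.26 with library size alone. Rgs11, the other R7 gene with a clear level in beta cells, had 34.4, 38.4, 42.4 and 35.7 (0.09, edgeR adjusted p = 0.529), and Rgs1, Rgs12 and Rgs19 were not called either. The median log2 change of the 8 was -0.40, against 0.00 for all genes, and 0.50 with library size alone.

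In alpha, delta and PP cells, where edgeR called 13.7%, 6.69% and 4.98% of all genes, it called 0 of 8, 0 of 8 and 0 of 3 of these genes, with 1, 2 and 0 at an unadjusted p under 0.05 and no adjusted p from DESeq2. Rgs1 was counted mainly in macrophages (2221, 2162, 1968 and 2320 CPM), as was Rgs10 (333, 391, 362 and 364). Rgs5 was found in endothelial cells (338, 315, 348 and 386) and in stromal cells, where it varied from 90.8 to 745. Rgs6, Rgs14, Rgs18, Rgs20 and Rgs22 had 5 UMIs or fewer in all beta cells of each library.

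The partners that R7 proteins need were described next to Rgs7 and Rgs9. None of the 5 (Gnb5, Rgs7bp, Rgs9bp, Gpr158 and Gpr179) was called in beta cells by edgeR or DESeq2, and 0 had an unadjusted p under 0.05. Of all genes in beta cells edgeR called 39.5% and DESeq2 33.1%. Rgs9bp rested on 3 to 13 UMIs per library and Gpr179 on 20 to 42, so for them the lack of a call says little. Gnb5 had 33.2, 39.6, 39.97 and 39.3 CPM (log2 change 0.11), and Gpr158, a receptor that binds R7 proteins, 54.9, 63.1, 54.3 and 59.0 (-0.08). Their median log2 change was 0.11.

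Among the alpha subunits on which the 6 proteins act, Gi/o genes gave 1 higher and 1 lower of 5 in beta cells and Gq/11 genes 2 higher and 0 lower of 4, with median changes of 0.16 and 0.21. Gnai1 rose from 30.4 and 26.9 to 70.4 and 82.2 CPM (1.40 ± 0.09, SE, edgeR adjusted p = 0.000217). Gna14 rose from 2.23 and 1.997 to 5.17 and 5.00 (1.25), and Gnaq from 102 and 93.3 to 116 and 117 (0.24). Gnai3 was lower (-0.29), which turned to 0.61 with library size alone. Of 4 Gs and G12/13 genes edgeR called Gnal (0.73, edgeR adjusted p = 0.0194), which DESeq2 did not call (adjusted p = 0.0857); DESeq2 called Gnas, named after its values were seen (adjusted p = 0.0368, against 0.117 with edgeR). Of 12 beta and gamma subunit genes 1 was higher, Gng2 (1.86), and 3 were lower: Gng12 (-1.40), Gng4 (-0.66) and Gng5 (-0.40). Gng4 and Gng5 turned to 0.24 and 0.50 with library size alone. Of these genes edgeR also called Gnaq higher in alpha (0.43) and endothelial cells (0.72) and Gng12 higher in PP cells (0.62). It called Gng5 lower in alpha (-0.52) and delta cells (-0.41), where Gng5 turned to 0.26 and 0.27 per cell. DESeq2 called 0 of 2 Gq/11 genes in endothelial cells and 0 of 8 beta and gamma genes in PP cells, with no adjusted p for 1 and 4.

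Gi/o coupled receptors gave 4 higher and 2 lower of 9 tested in beta cells, with a median of 0.49. Sstr1, a somatostatin receptor, had 6, 7, 97 and 64 UMIs (3.67), Ptger3, a prostaglandin E2 receptor, 53, 57, 373 and 181 (2.35), and Sstr3 rose by 0.49. Ffar3 fell (-1.15, and -0.25 with library size alone). The adrenaline receptor gene Adra2a, named after its values were seen, was lower in beta cells (-0.58, turning to 0.31 with library size alone). In PP cells edgeR called Adra2a higher, from 0 and 1 to 24 and 11 UMIs, and DESeq2 gave no adjusted p for the 3 Gi/o coupled receptors tested there. Gq coupled receptors gave 1 higher, Casr (0.50), and 2 lower of 5, Ffar1 (-0.91, and -0.02 with library size alone) and P2ry1 (-0.81, turning to 0.08). In alpha cells edgeR called Sstr3 (0.46) and Ffar1 (0.40) higher. DESeq2 called 0 of 7 Gi/o and 0 of 4 Gq coupled receptors in alpha cells, with no adjusted p for 5 and 3. Of 7 Gs coupled receptors in beta cells 0 were higher and 2 lower, Vipr1 (-1.62) and Gipr (-0.43, turning to 0.47).

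Effectors of these G proteins gave 7 higher and 0 lower of 10 in beta cells, with a median of 0.55. Plcb4 and Plcb3, phospholipases driven by Gq, rose by 1.01 and 0.93, and the adenylyl cyclase gene Adcy9 by 0.46. Kcnj5, a subunit of a potassium channel opened by G proteins, had 3, 0, 27 and 23 UMIs. Genes that respond to or end cyclic AMP signals gave 2 higher and 7 lower of 13, with a median of -0.24, which was 0.66 with library size alone. Crem and Pde10a were lower (-1.38 and -1.20, and -0.48 and -0.30 with library size alone), whereas Fosb (0.90) and Pde4d (1.01) were higher. In other classes edgeR called Adcy9 higher in alpha cells (0.66), Pde10a in PP cells (0.91) and Pde4d in endothelial cells (0.61). DESeq2 called 1 of 12 cyclic AMP genes in PP cells and 0 of 13 in endothelial cells, with no adjusted p for 8 in each class. Rgs2, known as a cyclic AMP target too, stood at a log2 change of 0.24 in beta cells. The lists were not tested as sets, and 19.5% and 20.1% of all genes in beta cells were called higher and lower.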

How the data were processed

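The authors deposited 4 tables of UMI counts per gene and cell, 1 per library, made with Cell Ranger 3.0.0, per the submitters' processing notes, which also name Seurat 2.3.4 and the build mm10. All deposited cells entered the class assignment, and each had at least 501 genes and at most 9.955% mitochondrial UMIs. In the order above, 66, 47, 154 and 60 cells fell in no class, or 1.11%, 0.80%, 3.55% and 2.42% of their library. These cells, 10, 4, 5 and 16 ductal cells and 1 erythroid cell of knockout library 1 were left out of the main class sums. Libraries were grouped by the genotype label. UMI counts were summed per class and library and tested with edgeR 4.0.16 (quasi-likelihood, TMM, filterByExpr, Benjamini-Hochberg threshold 0.05, R 4.3.3), tested on simulated data first; DESeq2 1.42.0, library size alone, per-cell scaling, no filter, other gates, doublets left out, each library left out and a replicate block were alternatives. Doublets stayed in; a Scrublet-type score marked 283, 273, 150 and 49 cells for the alternative. Cells meeting both the alpha and the delta gate (4, 2, 2 and 2) were left out. Depth was 34578 to 40121 UMIs in the median cell of a library. Python 3.11.15, NumPy 2.4.6, SciPy 1.17.1 and matplotlib 3.10.9 were used.

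The members, lists, classes and tests were chosen with earlier results of these data known. Beside the members and the other RGS genes, the text names up to 4 genes per list that were called in beta cells, by smallest p, and the 3 genes most like each member, of which 1 is not reported here; Gnb5, Gpr158, Gnas and Adra2a were named after their values were seen. Gene positions come from GENCODE and promoter windows from RefSeq.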

Additional observations from a re-analysis of the deposited data

Results flagged for a closer look

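Opposite changes between cell classes were seen for 2 genes, in which every knockout library moved one way in one class and the other way in another. The share of all genes with such a pattern was not counted. In beta, alpha, delta and stromal cells 73.3%, 59.6%, 55.5% and 38.6% of genes tested had groups that did not overlap. Nothing is therefore read from the count of 2. For Rgs16 the log2 change after TMM scaling in beta, alpha and delta cells exceeded that in stromal cells by 1.51, 1.91 and 1.11. The stromal values rest on 39 to 51 UMIs per library, and Rgs16 was not called there (edgeR adjusted p = 0.499). Its change in delta cells was itself 0.07. For Rgs17 the change in beta cells minus that in alpha cells was -0.41, and that in beta cells minus that in delta cells was -0.84. The alpha cell change of Rgs17 was itself 0.07. Differences between classes were not tested, and the beta cell change of Rgs17 turned to 0.56 with library size alone.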

How the results depend on the processing

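The counts of genes called were 6017 in beta, 1779 in alpha, 784 in delta, 523 in PP, 117 in endothelial, 4 in stromal, 27 in macrophage and 2 in Schwann cells. With library size alone they were 12967 in beta cells (12688 higher, 279 lower), 3384 in alpha (3225 and 159), 3711 in PP (3667 and 44), 2 in stromal and 59 in macrophage cells. With sums scaled by the number of cells they were 13090 (12789 and 301), 11147, 8942, 8390, 5270, 2, 5194 and 972, in the order above. DESeq2 called 885 in alpha, 394 in delta, 236 in PP, 76 in endothelial, 9 in stromal and 9 in Schwann cells. Without the filter 2755, 1639, 1052, 712, 120, 215 and 34 were called from alpha to Schwann cells. With hormone genes left out, edgeR called 0 in stromal and 0 in Schwann cells, with 453 and 286 genes at an unadjusted p under 0.05. Leaving out 1 library gave 3406 to 5854 in beta, 209 to 1095 in alpha, 225 to 654 in delta, 439 to 932 in PP, 129 to 351 in endothelial, 1 to 206 in stromal, 90 to 159 in macrophage and 20 to 37 in Schwann cells. The cause was not tested.

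In beta cells the log2 changes of Rgs2, Rgs4, Rgs7, Rgs9, Rgs16 and Rgs17 were 1.13, 0.86, 0.93, 0.76, 1.37 and 0.56 with library size alone and 1.15, 0.87, 0.93, 0.75, 1.37 and 0.57 per cell. Per cell, Rgs2 turned to 0.49 in PP cells (edgeR adjusted p = 0.0205) and 0.51 in macrophages (edgeR adjusted p = 0.0195). Both lay below the median genes of these classes, at 0.83 and 0.89 per cell, where 79.9% and 69.8% of genes were called. Leaving out 1 library moved Rgs2 in beta cells from -0.04 to 0.50 and Rgs17 from -0.36 to -0.29. With alpha and delta gates at 10%, Rgs16 in delta cells was -0.13 against 0.07.

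The labels link same-numbered libraries by a number only. The correlation of their deviations was -0.13 to 0.17 across classes, which cannot show whether they shared a batch. With a replicate block 6340, 2064, 676, 1048, 3, 45, 103 and 37 genes were called, and with crossed numbers, chosen after seeing the data, 543 in endothelial cells; the block changed no member's call (Rgs4 in PP cells 0.97). Few cells limit the stromal and Schwann classes, which held 45 to 66 and 25 to 49 cells per library.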
